A study of Homo sapiens with 3 samples.

Results

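Intron peaks without an annotated repeat are the YBX1 ChIP-seq peaks that the authors placed in an intron and to which their detailed annotation gave neither a repeat element nor a CpG island. The peaks on chromosomes 1 to 22 that met this rule numbered 2173 of 22874 in the replicate 1 list (9.50%) and 1231 of 17285 in the replicate 2 list (7.12%), or 3404 of 40159 over both lists. They made up 26.3% of the 8259 intron peaks of replicate 1 and 20.2% of the 6105 of replicate 2. A further 22 and 17 peaks with the same labels lay on X, Y or alternative contigs and were left out.

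The libraries came from HEL cells, an established human erythroleukaemia line carrying JAK2 V617F, grown in steady state without drug. Both ChIP libraries were made with an anti-YBX1 antibody and called against 1 shared input library of sheared HEL chromatin, and the labels do not say whether they came from separate cultures. The series has 1 cell line, 1 condition and no YBX1-depleted or non-specific antibody control, so the values compare libraries and classes of peaks and no treatment. After removal of duplicates, 10010819 tags (sequenced reads at distinct positions) were kept in replicate 1, 9926271 in replicate 2 and 74780414 in the input.

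YBX1 belongs to the Y-box family, whose cold-shock domain binds single-stranded RNA and DNA, and it takes part in transcription, splicing and the packaging and translation of mRNA. Introns are transcribed and then removed by splicing, and much of human intron sequence consists of interspersed elements such as LINEs and SINEs and of tandem repeats, in which a short unit is copied head to tail. A repeat label is given to one position of a peak, so a peak without one can still lie beside a repeat or run into it.

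The intron label itself was not uniform. In replicate 1, 2010 members carried a numbered intron of a transcript in the detailed annotation, whereas 155 carried "Intergenic" there, 6 a transcription termination site and 2 another entry. In replicate 2 the same counts were 1139 with a numbered intron, 78 with "Intergenic", 12 with a termination site and 2 with another entry. The "Intergenic" entries included members in named long non-coding RNA loci such as LINC01057 and LOC101927592. The 2 fields of the authors' annotation therefore disagreed for a minority of members, and all members were kept as the rule states.

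Most members were small peaks of few tags. The count of tags in a peak ranged from 5 to 490 in replicate 1 and from 5 to 83 in replicate 2, with a median of 6 in each list. Peaks with exactly 5 tags, the lowest count in either list, made up 34.6% and 36.2% of members. Only 124 members of replicate 1 (5.71%, 95% Wilson interval 4.81% to 6.76%) and 68 of replicate 2 (5.52%, 4.38% to 6.94%) held over 20 tags. The intervals cover counting error only. The replicate 1 members covered 159905 bp and took 0.209% of that library's kept tags, and the replicate 2 members covered 87214 bp and took 0.110%. Their median width was 59 bp in both lists, set by a caller that assumed fragments of 20 bp although each tag measured 36 bp.

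Fold enrichment, the ratio of ChIP to background at a peak's summit as the authors gave it, had a median of 41.5 among members of replicate 1 (range 4.98 to 302) and of 40.8 among those of replicate 2 (range 6.13 to 190). The 10th and 90th percentiles were 24.3 and 72.0 in replicate 1 and 20.2 and 68.0 in replicate 2. Folds under 20 belonged to 92 members of replicate 1 (4.23%) and 121 of replicate 2 (9.83%). Where input was sparse, the caller used a genome-wide background, and the fold is then a whole multiple of 13.5 in replicate 1 or of 13.6 in replicate 2. This was the case for 25.4% and 24.0% of members, for which the fold counts tags and was not divided by local input.

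Members were far smaller than intron peaks on tandem repeats and differed less from the other peak classes. Over 20 tags were held by 27.1% of 4264 intron tandem repeat peaks of replicate 1 and 18.7% of 3715 of replicate 2 (Fisher's exact test, two-sided, odds ratio of members against them 0.163, Benjamini-Hochberg adjusted p = 3.38e-106, and 0.254, adjusted p = 1.26e-32). Among intron peaks on interspersed repeats the share was 8.26% of 1719 (odds ratio 0.672, exact adjusted p = 0.0055) and 7.37% of 1085 (odds ratio 0.735, adjusted p = 0.128). Intergenic peaks without annotated repeat reached 6.82% of 3021 (odds ratio 0.827, exact adjusted p = 0.172) and 6.77% of 1951 (odds ratio 0.806, adjusted p = 0.246). The genome-wide background applied to 45.5% and 41.8% of intron tandem repeat peaks, more often than to members (odds ratio 0.408, exact adjusted p = 8.80e-56, and 0.439, adjusted p = 2.71e-29). These tests formed one family of 50 adjusted together, of which 24 passed an exact adjusted p of 0.05. They take peaks as independent, although neighbouring peaks share a locus and both lists share the input.

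Most members of replicate 1 were not found again in replicate 2. Of the 2173 members of replicate 1, 715 (32.9%, 31.0% to 34.9%) shared at least 1 bp with any replicate 2 peak. Of the 1231 members of replicate 2, 690 (56.1%, 53.3% to 58.8%) overlapped a replicate 1 peak, against a longer list. Intron tandem repeat peaks were found again in 70.5% and 91.3% of cases (odds ratio 0.205, exact adjusted p = 9.48e-183, and 0.121, adjusted p = 1.65e-152). Intron peaks on interspersed repeats were found again in 35.3% of cases in replicate 1 (odds ratio 0.901, exact adjusted p = 0.190) and 64.9% in replicate 2 (odds ratio 0.690, adjusted p = 5.04e-05). For intergenic peaks without annotated repeat the shares were 36.6% (odds ratio 0.849, exact adjusted p = 0.0146) and 59.7% (odds ratio 0.860, adjusted p = 0.0815), and the lower share of members passed the test against each of these classes in 1 of the 2 lists.

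The share found again was higher at each higher range of tag counts. In replicate 1 it was 12.4% of the 751 members with 5 tags, 22.3% of the 633 with 6 or 7, 42.5% of the 339 with 8 to 10, 67.2% of the 326 with 11 to 20, and 95.2% of the 124 with over 20. In replicate 2 the same ranges gave 35.0%, 52.2%, 72.5%, 85.9% and 91.2%. At a matched range of tags, members were still found again less often than intron tandem repeat peaks, with an exact adjusted p of at most 2.64e-07 in each of the 4 ranges up to 20 tags in both lists. Above 20 tags the difference passed the test in replicate 2, where 62 of 68 members and 696 of 696 tandem repeat peaks were found again (exact adjusted p = 1.35e-06), and did not in replicate 1, at 95.2% against 97.5% (odds ratio 0.507, adjusted p = 0.203). Against intergenic peaks without annotated repeat, 1 of the 10 matched comparisons passed, that of 5-tag peaks of replicate 1 (12.4% against 16.3%, odds ratio 0.725, exact adjusted p = 0.0470). Against interspersed repeats, the 3 ranges above 7 tags of replicate 2 passed (72.5% against 84.4%, 85.9% against 96.5% and 91.2% against 100%, with exact adjusted p = 0.0181, 0.00195 and 0.0181), and no range of replicate 1 did.

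**Figure D1:**
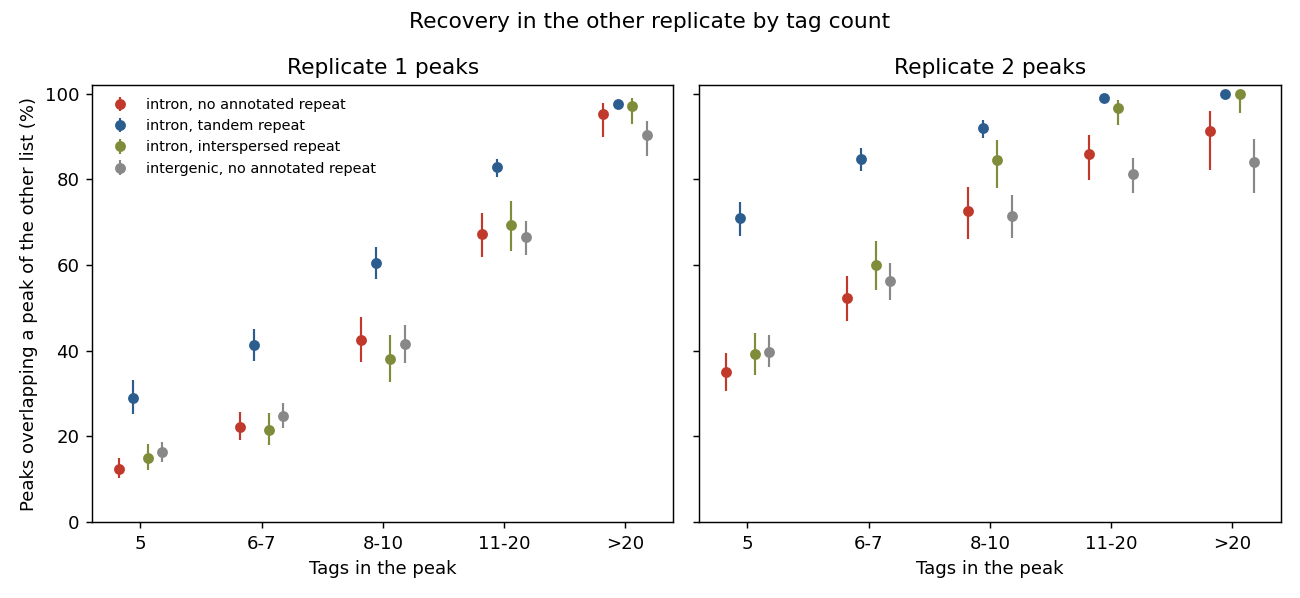
Share of peaks (percent, vertical axis) found again in the other list, by tags in the peak (horizontal axis), for 4 classes of peaks and for each replicate list. Points are shares and bars are 95% Wilson intervals; intron peaks without annotated repeat ran from 12.4% to 95.2% in replicate 1 and from 35.0% to 91.2% in replicate 2, below intron tandem repeat peaks in every range.

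Members found in the other list were larger peaks than the rest. In replicate 1 the 715 found again had a median of 10 tags and a median fold of 52.3, against 6 tags and 40.5 for the 1458 seen in that list only. In replicate 2 the 690 found again had a median of 8 tags and a fold of 44.8, against 5 tags and 38.6 for the other 541. Among members of replicate 1 seen in that list only, the highest folds were those in SLC7A8, an amino acid transporter gene (chr14:23616258-23616318, 15 tags, fold 121), VAV3 (chr1:108172960-108173051, 19 tags, fold 115), and CDH13, a cadherin gene (chr16:83584601-83584688, 17 tags, fold 108). Such members of replicate 2 included those in GABRB1, a GABA receptor subunit gene (chr4:47197611-47197706, 13 tags, fold 95.2), and C8orf12 (chr8:11278848-11278931, 11 tags, fold 81.6). Only 6 of the members seen in 1 list held over 20 tags in replicate 1, and 6 in replicate 2.

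A large part of the members lay directly beside a tandem repeat peak. In replicate 1, 972 members (44.7%, 42.7% to 46.8%) lay within 1 kb of a tandem repeat peak of the same list, edge to edge, and in replicate 2, 516 (41.9%, 39.2% to 44.7%). The distances fell into 2 separate ranges: 646 members of replicate 1 (29.7%) were within 100 bp and a further 261 (12.01%) within 200 bp, 65 (2.99%) over 200 and up to 1000 bp, 37 (1.70%) over 1 and up to 5 kb, and the others farther. In replicate 2 the same counts were 354 (28.8%), 143 (11.6%), 19 (1.54%) and 13 (1.06%). Intergenic peaks without annotated repeat were flanked in this way more often, at 51.04% in replicate 1 (odds ratio of members against them 0.776, exact adjusted p = 2.38e-05) and 45.9% in replicate 2 (odds ratio 0.851, adjusted p = 0.0613).

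**Figure D2:**
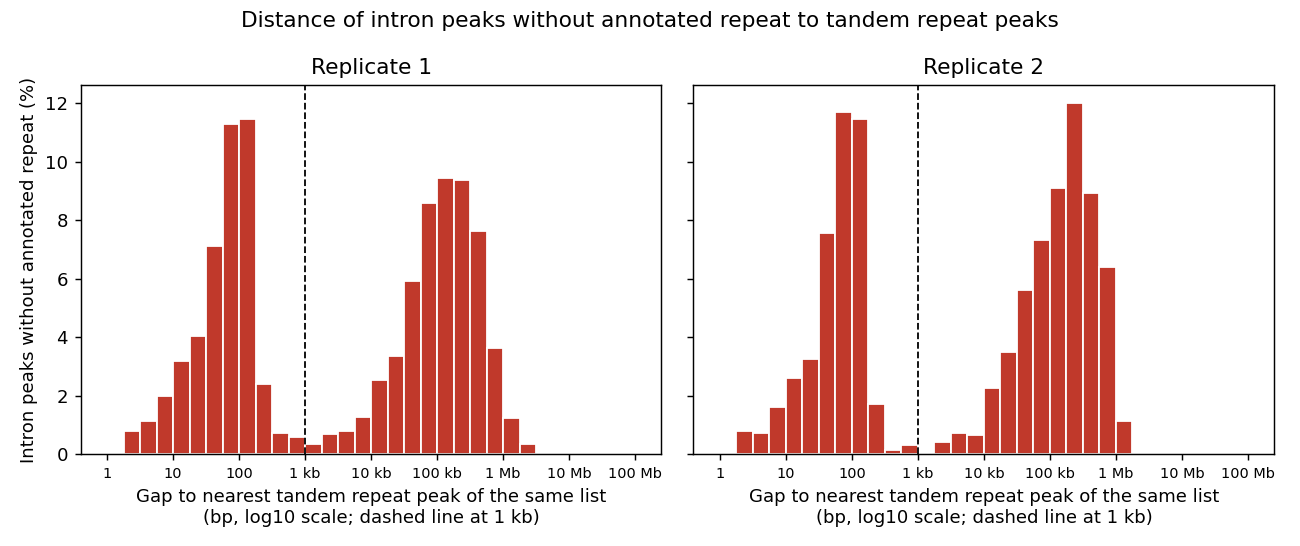
Gap from each intron peak without annotated repeat to the nearest tandem repeat peak of the same list (horizontal axis, base pairs, log10 scale) as a percent of members (vertical axis), for each replicate. The bars form a group below 1 kb (dashed line), which holds 44.7% and 41.9% of members, and a group above 5 kb, with 1.70% and 1.06% of members between 1 and 5 kb.

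The nearest flanking repeat was most often of the AGAT unit, which is read here over all rotations and both strands and so includes TAGA and TCTA. It flanked 509 of the 972 members near a tandem repeat peak in replicate 1 (52.4%) and 306 of the 516 in replicate 2 (59.3%). ATCC repeats came second, with 336 members (34.6%) and 155 (30.04%). Among all intron tandem repeat peaks the order was the other way round: AGAT was the unit of 32.9% and 35.0%, and ATCC of 49.0% and 47.1%. ACC repeats flanked 34 and 15 members, and ACCATC repeats 32 and 9. These shares were not tested, since 1 repeat can flank several members.

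The label itself changed between the lists for many members. With the tandem repeat peaks of both lists counted, 53.3% of replicate 1 members and 52.4% of replicate 2 members lay within 1 kb of one, and 229 (10.5%) and 199 (16.2%) coincided with one from the other list by 1 bp or more. Each member found again was paired with the overlapping peaks of the other list, and counted as paired with a member if any of them was one, and otherwise with a tandem repeat peak if any was one. The partner was also a member for 473 of 715 in replicate 1 (66.2%) and 475 of 690 in replicate 2 (68.8%), a tandem repeat peak for 210 (29.4%) and 177 (25.7%), a peak on an interspersed repeat for 27 and 33, and a peak with another label for 5 and 5. Among peaks with a p-value of at most 1e-10 the shares paired with a tandem repeat peak in this way were higher, at 47.4% and 39.7%. Members paired with a tandem repeat peak had a median fold of 67.4 and 55.6, above the 46.5 and 41.4 of those paired with another member.

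The members of highest fold were mostly of this kind. Among the 20 of highest fold in each list, the partner was a tandem repeat peak for 12 in replicate 1 and 14 in replicate 2, and a member for 7 and 6. Since a member partner took precedence, the number that overlapped a tandem repeat peak of the other list was 16 and 14. A tandem repeat peak of either list lay within 1 kb of 16 and 14 of them, whereas one of the same list did for 6 and 1. The genes named next were chosen after their values were seen. The highest fold of replicate 1 was in intron 2 of MON1A, a gene of vesicle trafficking (chr3:49948619-49948871, 71 tags, fold 302), where replicate 2 had a peak labelled (TAGA)n. RGS9, a regulator of G protein signalling (chr17:63179057-63179234, 43 tags, fold 263), and PRMT8, an arginine methyltransferase gene (chr12:3587260-3587482, 49 tags, fold 243), were each paired with a (TCTA)n peak. In replicate 2, METTL15 (chr11:28330442-28330544, 22 tags, fold 163) was paired with a (TAGA)n peak and LHFP (chr13:40053186-40053277, 21 tags, fold 163) with a (TCTA)n peak. At these loci 1 library's peak was labelled with the repeat and the other's was not, although the peaks overlapped.

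Members near and far from a tandem repeat peak of their own list differed in several ways, in 6 Fisher's exact tests that were added after the data were seen and adjusted together. In replicate 2, 66.7% of near and 48.4% of far members were found again (odds ratio 2.13, exact adjusted p = 1.19e-09), and in replicate 1, 34.8% and 31.4% (odds ratio 1.17, adjusted p = 0.118). This direction turned among peaks with a p-value of at most 1e-10, where the odds ratio was 0.520 as a geometric mean over the lists (the larger exact adjusted p = 0.0245). In replicate 2, 2.52% of near and 7.69% of far members held over 20 tags (odds ratio 0.310, exact adjusted p = 0.000127), and in replicate 1, 5.25% and 6.08% (odds ratio 0.856, adjusted p = 0.457). The genome-wide background applied to 29.7% of near and 21.8% of far members in replicate 1 (odds ratio 1.52, exact adjusted p = 9.09e-05) and to 29.7% and 19.9% in replicate 2 (odds ratio 1.70, adjusted p = 0.000127). With tandem repeat peaks of either list counted as near, 7.08% of near and 4.14% of far members of replicate 1 held over 20 tags, the other direction, and 4.81% and 6.31% of those of replicate 2, so the order of near and far by tag count depends on this choice. Input too sparse to set the background was more frequent at near members in both lists.

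The members that both lists labelled alike were counted as regions with a member in each list. Merging overlapping peaks gave 445 such regions, in 338 gene names, with a label that joins several names counted as 1. They were among 10895 regions shared between the lists, of which 883 had a member in at least 1 list. Their members had a median of 9 tags and a fold of 46.5 in replicate 1 and of 7 tags and 41.9 in replicate 2. A tandem repeat peak of either list lay within 1 kb of 233 of them, and 40 also contained a peak labelled as a tandem repeat. Log2 fold in the 2 lists correlated across the 445 regions (Pearson's r = 0.72, Spearman's coefficient = 0.692), with r = 0.62 over the 233 near a tandem repeat peak and r = 0.79 over the other 212. Regions are not independent replicates, and they share the input and the cutoff, so no test is given.

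**Figure D3:**
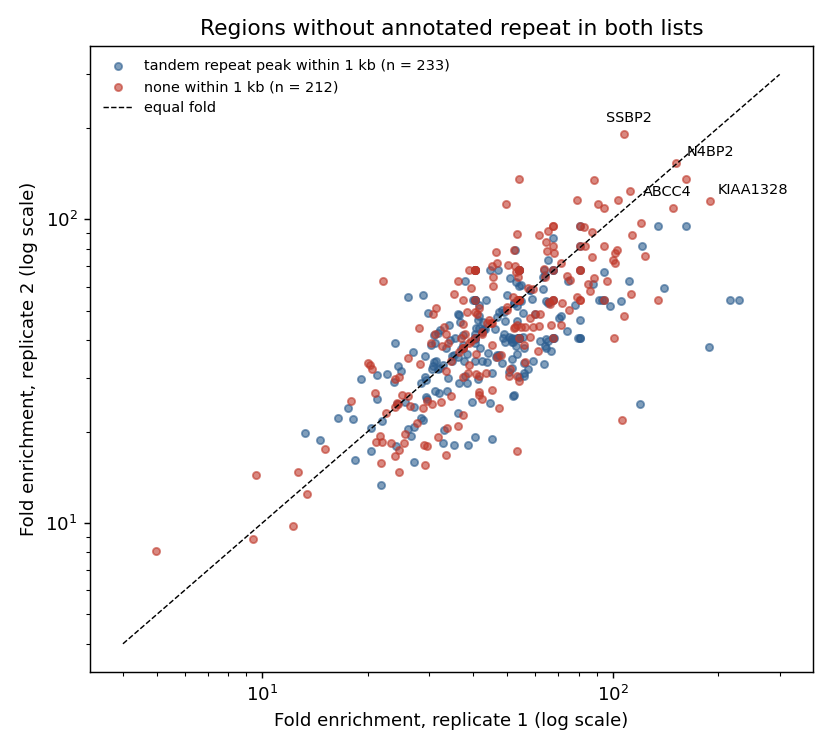
Fold enrichment of the 445 regions with a member in both lists, replicate 1 (horizontal axis) against replicate 2 (vertical axis), both log scales. Each point is 1 region, coloured by whether a tandem repeat peak of either list lay within 1 kb (233) or not (212), and the dashed line marks equal fold; N4BP2, KIAA1328, SSBP2 and ABCC4 stand at the upper end and have no tandem repeat peak within 1 kb.

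The regions with a member in both lists were then ranked by the lower fold of the 2 replicates. Members counted as paired with a tandem repeat peak, 12 and 14 of the 20 of highest fold, could not enter this ranking by themselves. For 10 of the 12 leading regions no tandem repeat peak of either list lay within 1 kb, which is in part set by that selection. Distance to repeats without a peak was not measured. First was intron 13 of N4BP2, which encodes a BCL3-binding protein (chr4:40137911-40138002), with 23 and 21 tags and folds of 152 and 153 in replicates 1 and 2. Second was a region in intron 1 of a gene whose symbol a spreadsheet had turned into the date 1-Dec (chr9:117961886-117961978), with 20 and 18 tags and folds of 162 and 136. KIAA1328 followed (intron 7, chr18:34701314-34701434) with 23 and 20 tags and folds of 190 and 115. In these regions both libraries placed about the same number of tags, which a ranking by the lower fold in part selects for.

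ABCC4, which encodes an ATP-binding cassette exporter, had a region labelled as a termination site (chr13:95747505-95747611) with 25 and 20 tags and folds of 112 and 124. In RPA3;RPA3OS, where RPA3 encodes a subunit of the single-stranded DNA-binding complex RPA, intron 2 (chr7:7732885-7732961) held 15 and 13 tags at folds of 148 and 109. SSBP2, a gene of the single-stranded DNA-binding protein family, held 15 and 18 tags in intron 4 (chr5:80789081-80789164) at folds of 108 and 190, the highest member fold of replicate 2. These regions were between 64 and 121 bp wide, as were those of N4BP2, KIAA1328 and KIF6, a kinesin gene (intron 13, chr6:39455731-39455794), which had 12 and 10 tags and folds of 120 and 97.2.

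The remaining leading regions were less simple. That of NBPF20;NBPF10 (chr1:145592210-145592310, 20 and 16 tags, folds of 103 and 116) carried a termination site label of a POLR3C transcript, and NBPF genes have near-identical copies, so its place is uncertain. The NWD1 region (intron 6, chr19:16864763-16865353) was 591 bp wide, contained a tandem repeat peak, and held 107 tags in replicate 1 against 58 in replicate 2 (folds of 162 and 95.2). C22orf34 (chr22:49892969-49893077, 19 and 13 tags, folds of 135 and 95.2) was labelled "Intergenic" in the detailed field and lay 542 bp from a tandem repeat peak. ZC3H14, a gene for a poly(A)-binding zinc finger protein, held 42 and 39 tags in intron 10 (chr14:89074223-89074665) at folds of 94.4 and 109. ARMC9 held 20 and 21 tags in its last intron (intron 20, chr2:232206350-232206442) at folds of 90.9 and 112. All 12 regions were kept when only peaks with a p-value of at most 1e-10 were used. That outcome was in part set by their choice for a high fold in both lists. With summits at most 50 bp apart, 11 were kept, without NWD1.

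Tag counts in the shared regions were compared between the libraries with an exact binomial test, two-sided, against the tags kept in each library, adjusted over all 10895 shared regions. Counts were those of the strongest peak of each list in the region, whatever its label. Of the 445 regions with a member in both lists, 25 were called higher in replicate 1, where 9.02% of all shared regions were, and 1 was called higher in replicate 2, where 0.248% were. Together these were 5.84% of the regions, below the 9.27% of all shared regions, at a lower depth (median of 18 tags against 26 over both libraries). The median log2 ratio of replicate 1 to replicate 2 was 0.25 in the 445 regions and 0.40 in all. When the expected share was taken from the tags of all shared regions, 2 were called higher in replicate 1 and 5 in replicate 2. When tags were summed over all peaks of a region, 12 and 1 were called. The test compares 2 libraries and not conditions.

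The region with the smallest adjusted p among these was in intron 5 of BPI, a neutrophil antibacterial protein gene (chr20:36941999-36943339), with 256 tags in replicate 1 and 86 in replicate 2 (log2 ratio 1.56, exact adjusted p = 8.69e-18). Next were CDH4, a cadherin gene (chr20:60464171-60465750, 362 and 195 tags, log2 ratio 0.88, exact adjusted p = 3.79e-10), and PDE9A, a cyclic GMP phosphodiesterase gene (chr21:44185012-44185474, 76 and 20 tags, log2 ratio 1.91, adjusted p = 4.88e-07). KIRREL3, an immunoglobulin superfamily adhesion gene (chr11:126637808-126638336), had 134 and 63 tags, and TNS1, a gene for the focal adhesion protein tensin (chr2:218673812-218674482), had 132 and 64. All 5 contained a peak labelled as a tandem repeat, as did 14 of the 26 called regions, and 22 of the 26 lay within 1 kb of one. In 17 of the 26 the region held more peaks in replicate 2 than in replicate 1, and only the strongest peak was counted. The region called higher in replicate 2 was in intron 5 of ARHGAP20 (chr11:110489807-110490019), with 10 and 28 tags (log2 ratio -1.50, exact adjusted p = 0.0376), where replicate 1 had 2 peaks and replicate 2 had 1.

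Most genes carried a single member. In replicate 1, 937 of 1334 gene names had exactly 1, and in replicate 2, 633 of 827. A label that joins several names, such as LINC01296;DUXAP10, counts here as 1 gene name. A member in both lists was found for 504 gene names, of 1657 with a member in either. Gene names with 5 or more members numbered 46 and 24, and held 367 and 194 members. Members of 1 gene share a locus and are not independent of each other.

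A few genes held several regions with a member in both lists, and they are given with their counts of peaks. PTPRD, a receptor-type tyrosine phosphatase gene on chromosome 9, had 9 such regions, from 20 members among 34 intron peaks in replicate 1 and 13 among 21 in replicate 2, spread from chr9:8373631 to chr9:10608010. Its members were weak, with a median fold of 24.1 and 24.7 and at most 18 and 30 tags. CDH4 had 5 regions from 26 and 13 members among its 93 and 83 intron peaks, and 22 and 11 of the members were within 1 kb of a tandem repeat peak. CDH12, another cadherin gene, had 4 regions with folds from 35.4 to 66.5 among its 6 replicate 2 members and from 29.1 to 91.5 among its 10 replicate 1 members. JAM3, a junctional adhesion gene tied with it at 4, held them within intron 1 (chr11:133962421-133963863), at least 214073 bp from the nearest tandem repeat peak, with 69 and 44 tags in the largest.

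Several of the others belong to gene families with related copies, such as NBPF, DUXAP and FAM157, in which reads can fall on another copy; how uniquely reads map there was not tested. FAM157B had 7 regions in intron 5 (chr9:141121845-141123788), with 12 to 58 tags in replicate 2 and folds of 12.5 to 33.1. F11-AS1 had 5 regions (median fold 25.02 and 29.8), LINC01296;DUXAP10 had 5 (44.2 and 44.8), NBPF20;NBPF10 had 5 (28.3 and 24.8) and DUXAP8 had 4 (35.8 and 46.2). None of the members in F11-AS1, FAM157B, LINC01296;DUXAP10 and DUXAP8 lay within 1 kb of a tandem repeat peak of its own list. TTC34 on chromosome 1, chosen after its values were seen, differed in number between the lists, with 8 members in replicate 1 and 35 in replicate 2. Its folds were low, with medians of 12.2 and 11.8, and 2 and 3 of its members were found in the other list. The opposite was seen in CAMTA1, a transcription activator gene also chosen after its values were seen, with 15 members in replicate 1 (5 to 190 tags) and 1 in replicate 2 (5 tags). CAMTA1 had 49 intron peaks of any label in replicate 1 and 35 in replicate 2. Of its 15 replicate 1 members, 7 overlapped a replicate 2 peak, so the count of members differed more than the count of peaks.

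First introns held 435 of 1989 members with a numbered intron in a transcript of more than 1 intron in replicate 1 (21.9%) and 244 of 1132 in replicate 2 (21.6%). If each intron of the same transcripts counted equally, the shares would be 10.9% and 11.2%. The last intron held 7.34% and 6.80%. Intron lengths were not used here, so the part of length in this share was not tested. Near and far members had similar shares in first introns, with 20.8% and 22.8% in replicate 1 and 22.8% and 20.7% in replicate 2.

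Members formed a different share of the intron peaks on different chromosomes, given here as a description. Chromosome 14 had the highest share, 61 of 166 intron peaks in replicate 1 (36.7%, 29.8% to 44.3%) and 39 of 109 in replicate 2 (35.8%, 27.4% to 45.1%). Without intron peaks in loci with names starting with NBPF, DUXAP, LINC01296, FAM157, TTC34 or F11-AS1, which were chosen for their many members after the data were seen, its shares were 26.1% and 28.6%. Chromosome 21 had 36.2% (30.7% to 42.0%) and 32.7% (26.9% to 39.2%), and the same without these loci. Chromosome 16 had the lowest, 37 of 338 (10.9%, 8.05% to 14.7%) and 19 of 256 (7.42%, 4.80% to 11.3%). With all loci counted, both lists placed chromosome 14 highest and chromosome 16 lowest. Without the named loci, chromosome 21 stood highest in both lists and chromosome 16 remained lowest.

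**Figure D4:**
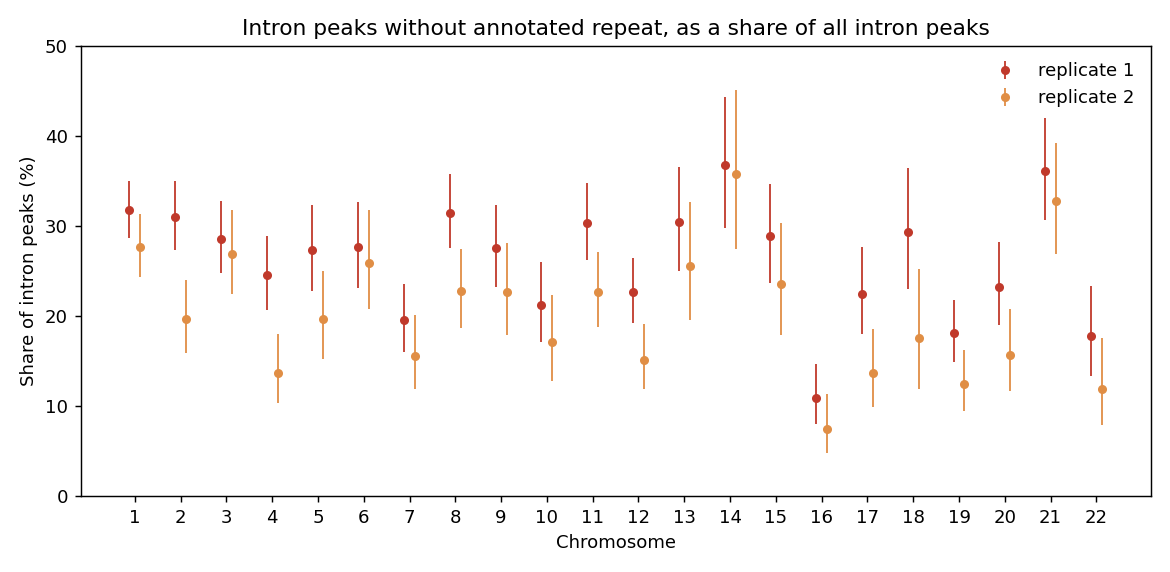
Intron peaks without annotated repeat as a percent of all intron peaks (vertical axis) on chromosomes 1 to 22 (horizontal axis), by replicate. Points are shares and bars are 95% Wilson intervals; chromosome 14 stands highest at 36.7% and 35.8%, and chromosome 16 lowest at 10.9% and 7.42%.

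Genes of JAK-STAT signalling, in which JAK2 acts, and of MAPK-ERK signalling were counted in the same way. The share of all annotated genes with an intron peak was not counted, so their counts are not read as few or many. Of all 2783 gene names with an intron peak in replicate 1, 49.9% had a member, and of the 2289 in replicate 2, 38.0%. Joined labels were split into single names for the gene lists and these shares. The names with a member (1388 and 869) are therefore more than those counted above. The JAK-STAT list of 38 genes had an intron peak in 5 and 4 genes and a member in 2 (STAT5B and TYK2) and 1 (PIAS2), with none in both lists. The MAPK-ERK and MNK list of 44 genes had an intron peak in 7 and 6 genes and a member in 2 of them in replicate 1 (28.6%) and 4 in replicate 2 (66.7%), on either side of the overall shares. NF1, a gene for a negative regulator of RAS, had one in each list at different places. NF1 held a replicate 1 member of 24 tags in intron 35 (chr17:29590051-29590237, fold 74.7), where replicate 2 had an overlapping peak that was not a member. Its replicate 2 member of 6 tags was in intron 11 (chr17:29528943-29528994, fold 39.2), and no replicate 1 peak overlapped it. The members in TYK2, and those in KSR2 and RPS6KA2 of the MAPK-ERK list, also overlapped a peak of the other list. None of these genes had a region with a member in both lists.

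Blood genes gave 2 such regions. Of 32 haematopoietic transcription factor genes, 9 had an intron peak in replicate 1 and 8 in replicate 2. Of these, 6 (66.7%) and 5 (62.5%) had a member, and 4 genes had one in both lists (ERG, PRDM16, RUNX1 and RUNX3). The members in ERG and RUNX3 overlapped no peak of the other list. In RUNX1, a regulator of blood stem cells and megakaryocytes, intron 2 (chr21:36343917-36344097) held 22 tags at a fold of 31.8 in replicate 1 and 8 tags at a fold of 32.3 in replicate 2, 61 bp from a tandem repeat peak. In PRDM16, a zinc finger transcription factor gene, intron 1 (chr1:3092565-3093089) held 14 and 6 tags at folds of 21.9 and 13.3, in a region that also contained a tandem repeat peak. Of 32 erythroid genes, 8 and 4 had an intron peak, with a member in 5 (62.5%) and 1 (25%), and ANK1, a red cell membrane skeleton gene, had members of 6 and 5 tags at different places. Of 24 megakaryocyte and platelet genes, 1 and 2 had an intron peak. VWF, which encodes von Willebrand factor, had a replicate 1 member of 41 tags (chr12:6092444-6092668, fold 108), 20 bp from a tandem repeat peak. A replicate 2 peak that was not a member overlapped it, and no gene of this list had a member in replicate 2.

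Splicing factor genes had a member in 7 of the 8 with an intron peak in each list (87.5%), out of 50 listed. The shares over all gene names with an intron peak were 49.9% and 38.0%, and the difference was not tested. They had it in both lists for 6 genes and in a common region for 3. CELF2, a gene for a CUG-binding splicing regulator, had 2 such regions, in intron 8 (chr10:11327090-11327188, 12 and 8 tags, folds of 70.3 and 47.2) and intron 3 (chr10:11266323-11266383, 7 and 6 tags, folds of 45.4 and 38.4). MBNL2, a muscleblind splicing regulator gene, had 8 and 10 tags in intron 4 (chr13:97998479-97998716, folds of 49.8 and 56.5). PCBP3, a poly(C)-binding protein gene, had 10 and 14 tags in intron 13 (chr21:47360643-47360733, folds of 35.2 and 56.8). The other splicing genes with members were RBFOX1, RBFOX2, RBFOX3, CELF4 and PTBP2, with 5 to 11 tags a member. The CELF2 region in intron 8 lay 34 bp from a tandem repeat peak and the MBNL2 region contained one. Those in intron 3 of CELF2 and in PCBP3 had none within 1 kb. Gene length was not taken into account.

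Gene families taken by symbol added further regions. Cadherin and protocadherin genes had 21 names with a common region, but all except CDH4 and CDH12 named 1 region of the protocadherin gamma cluster (chr5:140812890-140812972, 11 and 9 tags, folds of 80.9 and 54.4), whose genes overlap. Zinc finger genes had 4, in ZNF444, ZNF638, ZNF664-FAM101A and ZNF812, with folds between 13.2 and 58.0. Regulators of G protein signalling had none, with RGS9 in replicate 1 and RGS6 in replicate 2 as the members. Of zinc finger genes with an intron peak, 45.8% of 24 and 50% of 18 had a member. For regulators of G protein signalling it was 16.7% of 6 in each list. For cadherin and protocadherin names it was 77.1% of 35 and 79.4% of 34, with each overlapping gamma cluster name counted. Over all gene names the shares were 49.9% and 38.0%, and no difference was tested.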

How the data were processed

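YBX1 ChIP-seq was deposited as 2 peak lists, 1 per replicate. Per the headers, each was called separately against the same input with MACS 1.4.2 on hg19. The headers also record a cutoff of 1e-05 on the p-value, a fragment size of 20 bp, a tag size of 36 bp and 1 tag kept per position. The submitters' processing notes also name bcl2fastq 02.14.01.07, Trimmomatic 0.36 and Bowtie2. The rule of the authors' filter on the lists is not stated in the labels or headers. Each deposited row holds the count of tags in the peak, and the deposited score is 10 times the -log10 of its p-value, read from the values because the column name was lost. Fold enrichment is a ratio of summit tags to background computed by the authors, and the percent in the deposited false discovery column was 0 for every peak. The alignment name in the replicate 2 header carries another number than the label, and the label was followed. Position, gene and repeat labels are the authors'.

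Peaks overlapping by at least 1 bp were called shared and merged into regions. A fold within 0.006 of a whole multiple of that of 1 tag was counted at the genome-wide background. Classes were compared with Fisher's exact test and libraries with exact binomial tests, both two-sided with Benjamini-Hochberg adjustment (SciPy 1.17.1). Both were tested on simulated data. Whether the replicates are separate cultures is not in the labels, so their spread may be technical. No hg19 genome was used here and no sequence is printed.

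The members, the 10 gene lists and the tests were chosen with earlier results of these data known. The genes named were, unless stated otherwise, those of the 12 regions with a member in both lists and the highest lower fold, the 8 genes with the most such regions (with a tie), the 3 strongest members of each list without a partner (1 of these, and 1 gene list, are not reported here), the listed genes with such a region, and the 5 such regions with the smallest adjusted p. Alternatives covered the p-value, the overlap, the tag and distance limits, the tolerance, the expected share, each list taken alone and 6 groups of loci dense in members left out.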

Additional observations from a re-analysis of the deposited data

How the results depend on the processing

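Comparisons over both lists are given as the geometric mean of the lists' odds ratios of members against the other class, and passed where both lists did. Of 58 odds ratios under the alternatives, 42 kept their direction and their side of the threshold, 13 came to pass it and 3 turned. Some of the 58 were those of 1 list alone. These could only keep their side or come to pass, because the main comparison had to pass in both lists. Their part of the tally is therefore no check. Of 8 recomputed counts of regions, 3 stayed within 1.5 times. For each list taken alone, the odds ratios are those of the main tests and were not recomputed. Those of being found again, which needs both lists, were 0.849 and 0.860 against intergenic peaks without repeat. Against interspersed repeats they were 0.901 and 0.690. The odds ratios of over 20 tags were 0.672 and 0.735 against interspersed repeats. Those of the genome-wide background were 0.825 and 0.867 against intergenic peaks. Those of lying within 1 kb of a tandem repeat peak were 0.776 and 0.851. In each of these 1 list passed the test and the other did not. The odds ratio of near against far members being found again was 1.17 and 2.13 in the same way, 1.64 with a distance of 200 bp, 0.520 among peaks with a p-value of at most 1e-10 and 0.919 with summits at most 50 bp apart, so its direction depends on these choices; the cause was not tested. Among peaks with a p-value of at most 1e-10 the genome-wide background odds ratio against interspersed repeats turned from 0.892 to 1.06. With over 50 tags in place of 20 the odds ratio was 0.433 against intergenic peaks and 0.374 against interspersed repeats, both past the test. Without the peaks of any class in 6 groups of loci chosen for their many members after the data were seen, the odds ratio of over 20 tags was 0.673 and 0.581; that choice removes members of many tags, so it supports no difference. The 1 kb comparison passed with 5000 bp (0.801) and with the tandem repeat peaks of either list (0.808), the latter also added after seeing the data. The 445 regions fell to 129 at a p-value of at most 1e-10, where fewer peaks enter. Of these 129, 9 were called higher in replicate 1 and 1 in replicate 2. Among all 6682 shared regions at this p-value, 857 were called higher in replicate 1 and 15 in replicate 2. Regions called higher in replicate 1 numbered 12 with summed tags and 2 with the expected share from shared regions, where 5 were called higher in replicate 2. Over all shared regions that last setting called 281 higher in replicate 1 and 110 in replicate 2, and summed tags called 542 and 10. No paired analysis was possible because both replicates belong to 1 group and the input has no list of its own. Depth limits each value, since the median member held 6 tags.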
